A study of Mus musculus with 9 samples.

Results

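The telomere and DNA repair genes are 35 mouse genes whose products cap chromosome ends, extend telomeres, signal DNA damage or mend broken DNA. Their open chromatin was read in alphaTC1 cells, a murine pancreatic alpha cell line, by ATAC-seq, in which a transposase cuts and tags accessible DNA. A region of the deposited consensus set was taken as belonging to a gene when it overlapped the gene body extended by 5 kb on both sides, on mm10 (GRCm38). This gave 108 of the 80827 regions, and all 35 genes had at least 1. The rule itself uses the function and position of the genes, but the list was drawn up with earlier results of these data known.

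The 9 libraries form 3 groups of 3 biological replicates, all collected on day 5 after transduction. The controls carried an empty vector, the second group an shRNA against Smndc1, a splicing factor, and the remaining group an shRNA against Atrx, a chromatin remodeler that deposits histone variants at repeats. All groups are the same cell line, and an shRNA acts on RNA, so accessibility does not show how far either target fell. In bulk libraries fewer open cells and less signal per cell cannot be told apart. Regions were present at the alpha cell genes Gcg, Irx1, Irx2, Ttr and Pcsk2, and those of Gcg, which encodes glucagon, summed to 84.4 to 151 CPM over the 9 libraries (counts scaled to library size and by TMM factors, which equalise libraries for composition). Of 6 beta cell genes, Ins1, Pdx1 and Iapp had no region, and the other 3 held 6 regions with a sum of 138 to 208 CPM, among them Nkx6-1 with 113 CPM and Ins2 with 5.29 CPM on average. No region lay at either delta cell gene (Sst, Hhex). Summed markers of the other cell types overlapped between the 3 groups. The 3 fibroblast genes had 91.4 to 101 CPM with empty vector, 86.4 to 110 with Smndc1 shRNA and 88.2 to 97.7 with Atrx shRNA. The 3 endothelial genes had 101 to 129, 118 to 138 and 104 to 122 CPM in the same order.

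Telomeres end in repeats that look like broken DNA, and the shelterin proteins hide them from the ATM and ATR kinases that answer to double-strand breaks and to single-stranded DNA. Breaks are rejoined directly by the Ku proteins or copied from a sister by homologous recombination, which begins with resection by the MRN complex and needs BRCA1, PALB2 and BRCA2 before strands can be exchanged. Cells without ATRX can lengthen telomeres by recombination in place of telomerase, and RecQ helicases and the SMC5/6 complex act on such joined molecules.

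RefSeq promoter windows (GRCm38.p6, 250 bases before to 50 bases after the start) were found for 29 of the 35 genes; none was found for Terf1, Rad50, Nbn, Fancd2, Rdm1 and Wrn. The start base lay inside a region for 27 of the 29, against 47.4% of 17492 coding genes. The windows below are shown because they belong to the strongest start regions (Fignl1, Xrcc6, Mdc1) and to the promoter with the most matches of both capitalised motifs (Chek2). Capitals mark CCAAT or its reverse complement ATTGG, and TTTNNCGC (the core bound by E2F factors) or its reverse complement GCGNNAAA.
Fignl1, chr11:11808913-11809212, minus strand: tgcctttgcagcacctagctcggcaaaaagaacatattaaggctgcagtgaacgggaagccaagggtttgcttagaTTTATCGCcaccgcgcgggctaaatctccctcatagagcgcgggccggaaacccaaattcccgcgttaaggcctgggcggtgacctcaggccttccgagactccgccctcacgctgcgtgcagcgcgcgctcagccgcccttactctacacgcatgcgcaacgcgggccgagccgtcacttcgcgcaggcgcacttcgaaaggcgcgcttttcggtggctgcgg
Xrcc6, chr15:82016119-82016418, plus strand: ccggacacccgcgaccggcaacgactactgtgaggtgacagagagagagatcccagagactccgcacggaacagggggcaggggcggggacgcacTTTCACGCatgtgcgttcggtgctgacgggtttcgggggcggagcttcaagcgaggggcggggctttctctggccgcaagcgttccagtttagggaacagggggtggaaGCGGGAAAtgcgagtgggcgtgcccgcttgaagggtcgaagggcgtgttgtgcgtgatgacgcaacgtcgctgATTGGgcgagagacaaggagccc
Chek2, chr5:110839733-110840032, plus strand: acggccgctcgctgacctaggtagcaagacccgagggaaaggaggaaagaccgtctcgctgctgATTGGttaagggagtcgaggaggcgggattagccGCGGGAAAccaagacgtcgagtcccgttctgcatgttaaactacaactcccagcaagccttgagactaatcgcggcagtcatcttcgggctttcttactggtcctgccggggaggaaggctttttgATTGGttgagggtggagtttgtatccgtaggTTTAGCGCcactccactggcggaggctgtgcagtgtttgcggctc
Mdc1, chr17:35841248-35841547, plus strand: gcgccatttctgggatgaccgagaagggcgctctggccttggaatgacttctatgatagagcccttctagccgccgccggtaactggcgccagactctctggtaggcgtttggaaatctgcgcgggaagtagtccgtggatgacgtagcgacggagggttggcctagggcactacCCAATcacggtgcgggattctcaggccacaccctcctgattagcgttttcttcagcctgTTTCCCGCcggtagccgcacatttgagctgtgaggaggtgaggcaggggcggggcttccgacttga

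The TTTNNCGC motif was in 6 of the 29 windows (20.7%), against 5.17% of all 32851 RefSeq promoter windows and 9.68% of coding genes whose start lies in a region. The 6 are Brca2, Chek2, Fignl1, Mdc1, Terf2ip and Xrcc6. CCAAT was in 15 of 29 (51.7%, against 37.4% and 40.7%) and GGGCGG, the GC box, in 20 of 29 (69.0%, against 35.7% and 69.2%). Matches were counted on both strands, and matches of TTTNNCGC and the GC box may overlap. The median ratio of observed to expected CpG was 0.87 in the 29 windows and 0.58 over coding genes. It was not computed for coding genes whose start lies in a region, as most of the 29 starts do, so these sets are unlike. The median GC content was 58.0% in the 29 windows and 56.3% over coding genes, against 62.0% over those whose start lies in a region. These matches describe the letters in the windows and are not binding sites.

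Most members were open at their starts, and regions there had a higher median level than those in gene bodies. A region lay over the start in 28 genes, where the start was that of the promoter window or the outer bound of the gene. At Smc5 and at a second region of Trp53bp1 only the outer bound was covered. These regions lay 756 and 24505 bp upstream of the promoter-window start. For the 6 genes with no strand in the table used, a region lay over or within 500 bp of a gene bound, which may be the far end of the gene. Together these are 34 of the 35 genes, all except Brca1. Of the 108 regions, 32.4% lay over a start or at a gene bound, and 29 lay over a start. Over all regions, 11.4% lay over a RefSeq start. That share counts no gene bounds and includes regions outside the windows of coding genes, so these shares are not measured alike. Start regions had a median level of 32.8 CPM and gene body regions of 3.95 CPM, close to the 34.2 CPM of all start regions and the 4.52 CPM of all others. The 29 start regions summed to 854.3 to 1381 CPM in a library, and all 108 regions to 1991 to 2760 CPM. In 10 of the 29 start regions the start of another gene lay in the same region, among them Npat with Atm, Gen1 with Smc6, Ankrd49 with Mre11a and Desi1 with Xrcc6. The counts of those regions cannot be assigned to either gene, and 42 of the 108 regions lay in the window of a second coding gene.

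The region of each gene with the highest mean CPM, called its lead region, differed 14.2-fold per kb between the highest and the lowest gene. Leads were picked by CPM and not per kb, so another, narrower region of a gene may stand higher per kb. All values in this paragraph are means over the 9 libraries in CPM per kb of region. Rdm1, which encodes a RAD52 motif protein, led with 209 CPM per kb in a region of its body, at the 99.9th percentile of start regions. The lead region of Brca1 stood at 199 CPM per kb, 551 bp upstream of its start and over the start of its neighbour Nbr1. Fignl1, an AAA ATPase with a role in homologous recombination, followed with 154, then Xrcc6 (the Ku70 subunit) with 123 and Mdc1 (a mediator that binds damaged chromatin) with 103. The lowest were Atr, the kinase that senses single-stranded DNA, with 15.9, and Tert, the catalytic subunit of telomerase, with 14.8.

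**Figure D1:**
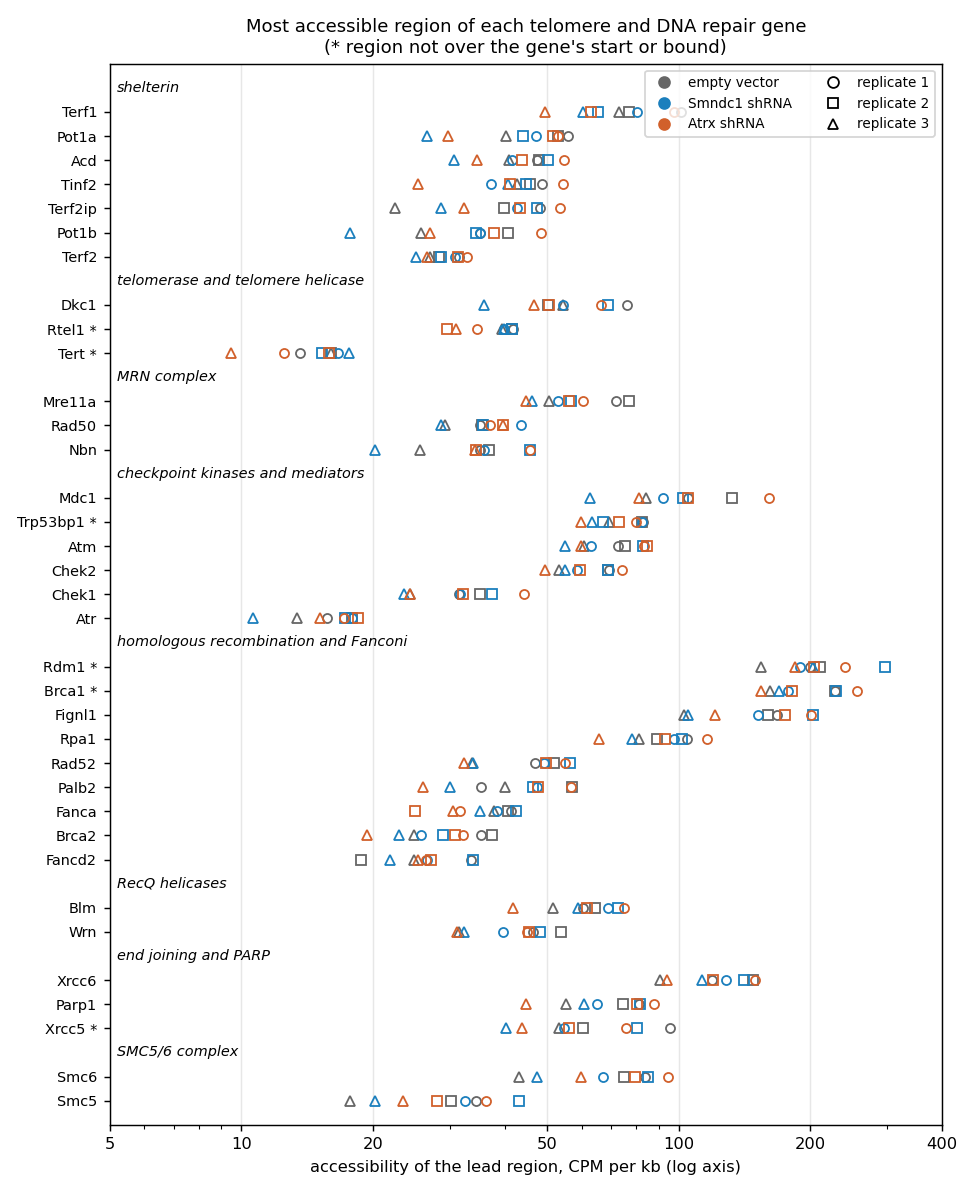
Accessibility of the lead region of each of the 35 genes in CPM per kb (log axis), grouped by role. Each point is 1 library, coloured by group and shaped by replicate number. An asterisk marks a lead region that is not over the gene's start or, for genes with no strand, not within 500 bp of a gene bound. Rdm1, Brca1 and Fignl1 lie highest and Atr and Tert lowest, and replicate 3 (triangles) is often the lowest library of its group.

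Tert was weakly open at its start as well. Its start region stood at 8.29, 4.80 and 5.63 CPM with empty vector, 8.68, 8.13 and 6.43 with Smndc1 shRNA and 3.69, 7.25 and 5.03 with Atrx shRNA. The 3 groups overlapped, and neither shRNA passed the test (edgeR adjusted p = 0.874 and 0.982). Among the 7 shelterin genes, lead levels ran from 74.1 CPM per kb at Terf1 to 29.1 at Terf2, both of which encode proteins that bind the double-stranded repeat. Pot1a and Pot1b, the 2 mouse genes for the protein on the single-stranded overhang, had 44.5 and 33.6 CPM per kb. Neighbours in the order of lead levels, such as Atm, Smc6 and Parp1 with 70.8, 70.5 and 70.2 CPM per kb, differed by less than the spread of libraries, whose median SD with empty vector was 18.5% of the mean.

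Part of that spread followed the replicate number and not the group. Library totals ran from 5.29 to 8.15 M counts, and in replicate 3 of every group the strongest 10% of all regions held 38.5% to 38.8% of counts, against 43.3% to 48.8% in the other 6 libraries. The summed level of the 108 regions was 1991 to 2000 CPM in the replicate 3 libraries and 2318 to 2760 CPM in the others. Replicate 3 was the lowest library of its group at 31 of the 35 lead regions with empty vector, at 32 with Smndc1 shRNA and at 32 with Atrx shRNA. A second scaling, trended offsets, fits a loess curve of each library against the mean log2 count and removes differences in this contrast. With it the summed levels were 2304 to 2376 CPM, the same counts of lead regions were 12, 18 and 17, and the median SD fell to 9.4% of the mean. Values below are with TMM factors unless trended offsets are named.

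**Figure D2:**
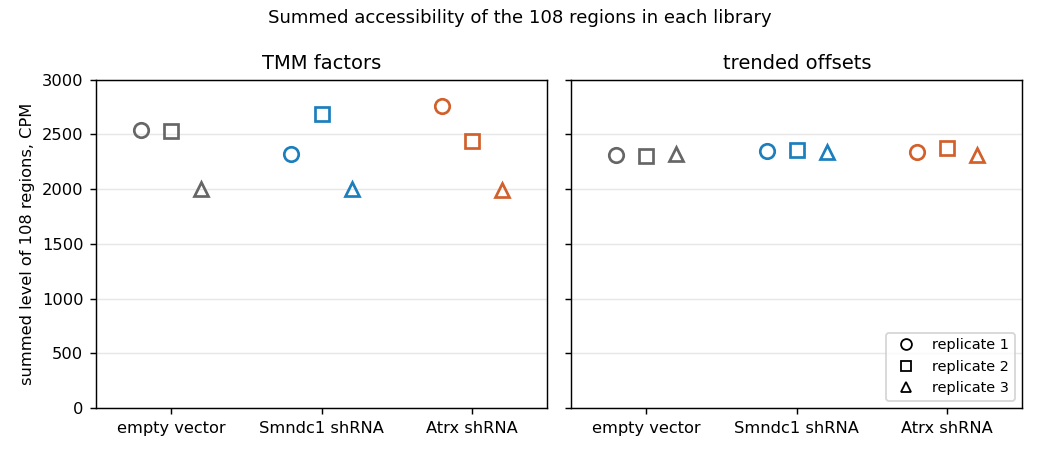
Summed accessibility of the 108 regions in CPM in each of the 9 libraries, with TMM factors (left) and trended offsets (right); the shape of a point is the replicate number. With TMM factors the 3 triangles lie at 1991 to 2000 CPM, under all other libraries, and with trended offsets all 9 libraries lie between 2304 and 2376 CPM.

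Atrx shRNA was compared with empty vector to see which of these genes differ in accessibility when Atrx is targeted. With TMM factors, 0 of the 107 tested regions passed an adjusted p of 0.05 in edgeR's quasi-likelihood test, where 0% of all 80345 regions did; 1 member region, in Wrn, fell below the filter on low counts. At an unadjusted p under 0.05 there were 7 of 107 (6.54%, against 5.75% of all regions), and DESeq2 and limma voom called 0. The shares of all regions or genes that DESeq2 and limma voom called are not given, here or below. Their counts are therefore not read as results about the members. The groups did not overlap, with Atrx shRNA higher, at 5 regions (4.83% of all regions did so) and, with Atrx shRNA lower, at 4 (5.65%). With trended offsets these counts were 6 (7.23%) and 10 (7.67%). The median log2 fold change was 0.02 over the members and 0.01 over all regions, with 58 regions positive and 49 negative; with trended offsets these were -0.02 over members and over all regions, with 51 positive and 56 negative. With trended offsets 1 member region rose and 0 fell, where 0.269% of all regions were called, 0.194% higher and 0.0747% lower. At an unadjusted p under 0.05 there were then 10 (9.35%, against 9.56%). That region lies in the body of Fignl1.

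The Fignl1 region, chr11:11804009-11804747, sits inside the gene, 4215 bp downstream of the start. Its level was 11.4, 13.4 and 12.1 CPM with empty vector, 15.3, 17.96 and 13.2 CPM with Smndc1 shRNA and 25.2, 28.4 and 23.4 CPM with Atrx shRNA. All 3 Atrx shRNA libraries lay above the other 6, while the Smndc1 shRNA libraries overlapped the controls at their low end with TMM factors and lay just above them with trended offsets. The log2 fold change for Atrx shRNA was 1.06 ± 0.23 (SE; 95% interval 0.61 to 1.51; unadjusted p = 1.07e-05, edgeR adjusted p = 0.202) with TMM factors. With trended offsets it was 1.12 ± 0.20 (adjusted p = 0.00136). Leaving out 1 library at a time, the trended call was lost only without empty vector replicate 1 (log2 fold change 1.02, edgeR adjusted p = 0.057), and the TMM fit made the call only without Smndc1 shRNA replicate 3 (1.06, edgeR adjusted p = 0.0287). Without replicate 3 of every group the TMM fit made it too (1.12, adjusted p = 0.0123). Against Atrx shRNA, Smndc1 shRNA was lower by a log2 difference of -0.73 ± 0.22 (adjusted p = 0.304) with TMM scaling and -0.72 ± 0.20 (adjusted p = 0.0622) with trended offsets, and neither of these fits called the difference between the shRNAs. The edgeR quasi-likelihood test gave all these values.

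None of the other 3 regions of Fignl1 was called with either scaling. The start region, whose promoter letters are given above, stood at 124, 118 and 76.1 CPM with empty vector, 112, 150 and 77.8 with Smndc1 shRNA and 148, 129 and 89.6 with Atrx shRNA. The groups overlapped with TMM factors, and the log2 fold change for Atrx shRNA was 0.20 ± 0.28 (edgeR adjusted p = 0.982). With trended offsets the Atrx shRNA libraries lay above the controls here too, by 0.16 ± 0.10 (adjusted p = 0.65). A weaker body region 5955 bp from the start had 2.81, 4.67 and 6.58 CPM with empty vector, 9.27, 10.8 and 5.92 with Smndc1 shRNA and 5.14, 7.83 and 10.6 with Atrx shRNA. Both shRNA groups overlapped the controls there, at 0.89 ± 0.33 for Smndc1 shRNA (edgeR adjusted p = 0.36) and 0.74 ± 0.33 for Atrx shRNA (adjusted p = 0.816). The flanking region 2912 bp upstream, which also lies in the window of Ddc, gave 0.14 ± 0.23 for Atrx shRNA (edgeR adjusted p = 0.985). Summed over the 4 regions, Fignl1 had the highest log2 fold change of the 35 genes for Atrx shRNA, 0.34 (unadjusted p = 0.0138, edgeR adjusted p = 0.58).

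**Figure D3:**
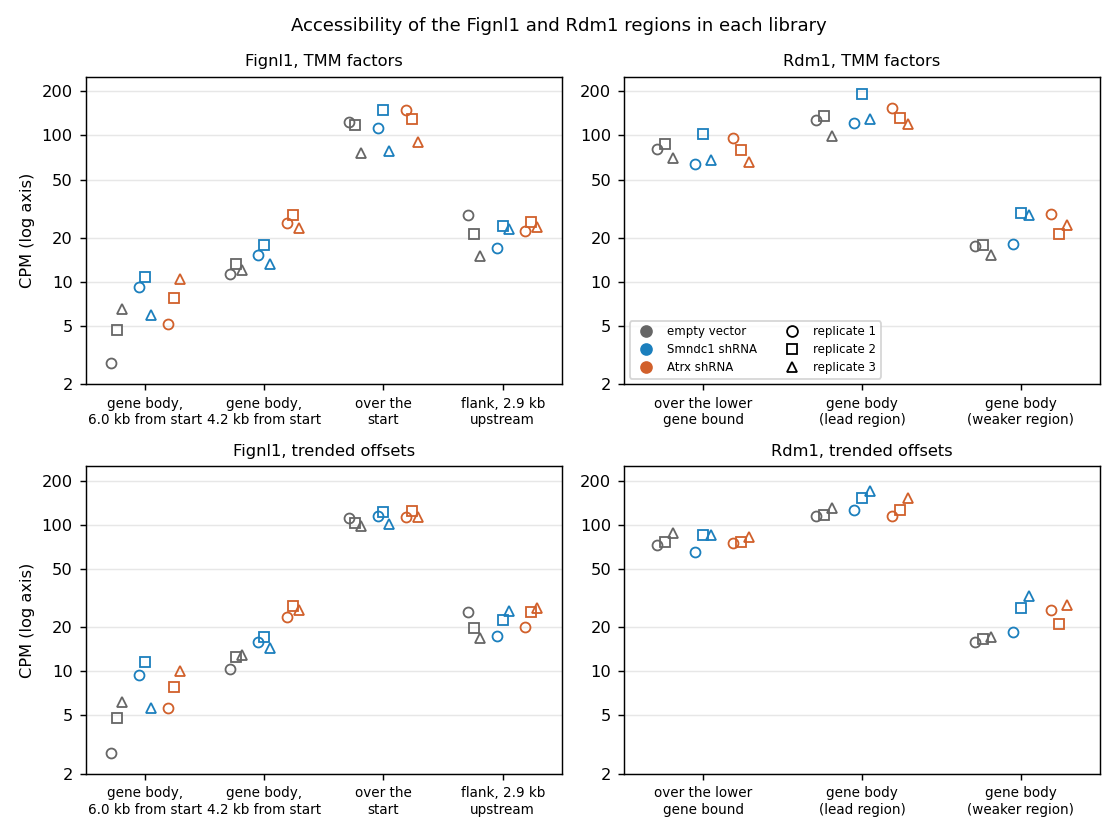
Accessibility in CPM (log axis) of the 4 Fignl1 and 3 Rdm1 regions in each library, with TMM factors (top) and trended offsets (bottom); colour is the group and shape the replicate number. At the Fignl1 region 4.2 kb from the start the 3 Atrx shRNA libraries lie at 23.4 to 28.4 CPM and the controls at 11.4 to 13.4 CPM, while at the start region the groups overlap with TMM factors and the Atrx shRNA libraries lie slightly above the controls with trended offsets.

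Of the shelterin genes, Pot1a held 2 of the 4 regions with the highest fold change for Atrx shRNA among those with a mean log2 CPM of at least 1, both beside its start and both weak. The region 839 bp inside the gene (chr6:25807879-25808379) had 1.33, 4.02 and 0.626 CPM with empty vector, 4.12, 3.90 and 0.338 with Smndc1 shRNA and 4.66, 7.64 and 6.33 with Atrx shRNA. The Atrx shRNA libraries lay above both other groups with TMM factors but overlapped the controls with trended offsets, and the log2 fold changes were 1.598 ± 0.55 (edgeR adjusted p = 0.655) and 1.34 ± 0.54 (adjusted p = 0.379). The region 927 bp upstream had 3.55, 2.85 and 2.35 CPM with empty vector and 8.03, 2.48 and 5.84 with Atrx shRNA, which overlap (0.91 ± 0.45, edgeR adjusted p = 0.865). Between them, the start region of Pot1a gave -0.15 ± 0.25 (edgeR adjusted p = 0.985). Another region of the gene, 41697 bp from the start, was among the lowest for Atrx shRNA, at -0.59 ± 0.38 (edgeR adjusted p = 0.934), so the 6 regions of Pot1a had no common direction. None of these passed the test.

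The remaining extremes for Atrx shRNA were in long gene bodies. Xrcc5, the Ku80 subunit, had a region 13101 bp from its start at 0.91 ± 0.58 (edgeR adjusted p = 0.934). Trp53bp1, whose product 53BP1 protects broken ends from resection, held 2 of the 4 lowest regions, with -0.64 ± 0.37 and -0.57 ± 0.27 (edgeR adjusted p = 0.916 and 0.846). At the latter, Atrx shRNA gave 7.07, 12.4 and 4.22 CPM and empty vector 12.7, 10.1 and 11.9, so the groups overlapped. The lowest value was at the Wrn body region described below, -0.71 ± 0.67 (edgeR adjusted p = 0.964), or -0.94 ± 0.61 (adjusted p = 0.65) with trended offsets. Of the lead regions, that of Fanca, a subunit of the Fanconi core complex, was lower in all 3 Atrx shRNA libraries (17.2, 13.6 and 16.6 CPM) than in the controls (22.5, 22.1 and 20.5 CPM). Its log2 fold change was -0.46 ± 0.23 (unadjusted p = 0.0459, edgeR adjusted p = 0.864).

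**Figure D4:**
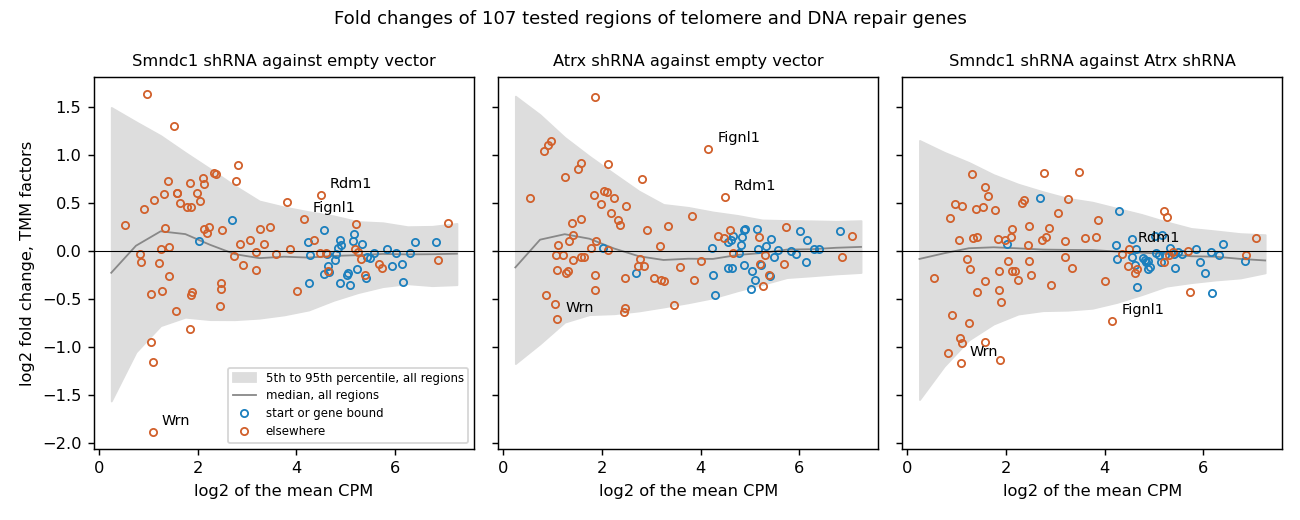
Log2 fold change with TMM factors (vertical axis) of the 107 tested regions against the log2 of their mean CPM (horizontal axis) in the 3 comparisons; the grey band is the 5th to 95th percentile of all regions of like level and points are coloured by place. Inside the band lie 96 of 107 regions for Smndc1 shRNA, 99 for Atrx shRNA and 97 for the shRNAs against each other, and the labelled Fignl1 region lies above it for Atrx shRNA.

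Smndc1 shRNA was compared with empty vector in the same way, with the same 3 control libraries. With TMM factors 0 of 107 member regions passed the edgeR test, where 0.156% of all regions did, and DESeq2 and limma voom called 0. At an unadjusted p under 0.05 there were 9 (8.41%, against 8.09% of all regions), and the median log2 fold change was 0.02 over members and over all regions. The groups did not overlap, with Smndc1 shRNA higher, at 9 regions (5.76% of all regions did so) and, with Smndc1 shRNA lower, at 3 (7.02%). With trended offsets both counts were 10 (7.67% and 8.49%), so the lean towards higher regions was not kept. With trended offsets 1 region rose and 0 fell, where 1.15% of all regions were called, 0.414% higher and 0.736% lower. At an unadjusted p under 0.05 there were then 15 (14.0%, against 12.4%). The region lies in the body of Rdm1.

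The Rdm1 region, chr11:101629337-101629837, is the weakest of 3 in that gene. It stood at 17.6, 17.9 and 15.3 CPM with empty vector, 18.1, 29.5 and 28.8 with Smndc1 shRNA and 28.9, 21.4 and 24.7 with Atrx shRNA. Both shRNA groups lay above the controls, although Smndc1 shRNA replicate 1 exceeded the highest control only slightly. The log2 fold change for Smndc1 shRNA was 0.58 ± 0.23 (edgeR adjusted p = 0.442) with TMM scaling and 0.65 ± 0.18 (adjusted p = 0.0387) with trended offsets. For Atrx shRNA it was 0.56 ± 0.23 (edgeR adjusted p = 0.793) and 0.61 ± 0.18 (adjusted p = 0.126), and between the shRNAs 0.02 ± 0.23 (adjusted p = 1), with a 95% interval of -0.44 to 0.48. The trended call for Smndc1 shRNA was lost without any 1 of 5 libraries: empty vector replicate 1 (edgeR adjusted p = 0.222) or 2 (0.205), Smndc1 shRNA replicate 2 (0.131) or 3 (0.265), and Atrx shRNA replicate 2 (0.0579).

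The stronger body region of Rdm1, its lead region, had 128, 135 and 99.1 CPM with empty vector, 122, 191 and 130 with Smndc1 shRNA and 155, 131 and 119 with Atrx shRNA. The groups overlapped, with 0.29 ± 0.28 for Smndc1 shRNA (edgeR adjusted p = 0.864) and, with trended offsets, 0.30 ± 0.10 (adjusted p = 0.116). The region at the lower gene bound gave -0.03 ± 0.27 (edgeR adjusted p = 0.992).

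The lowest fold change for Smndc1 shRNA, among regions with a mean log2 CPM of at least 1, was in the body of Wrn, a RecQ helicase and exonuclease lost in a premature ageing syndrome. This region, chr8:33320511-33321011, had 1.93, 4.67 and 3.6 CPM with empty vector, 1.03, 0.678 and 1.01 with Smndc1 shRNA and 1.93, 1.34 and 2.92 with Atrx shRNA. The Smndc1 shRNA libraries held 5.41 to 6.68 M counts in total, so each of their values here rests on few counts. The Smndc1 shRNA libraries lay below both other groups, at a log2 fold change of -1.88 ± 0.71 (edgeR adjusted p = 0.395) with TMM scaling and -2.11 ± 0.66 (adjusted p = 0.0816) with trended offsets. The lead region of Wrn, at the upper bound of the gene, stood at 74.8 ± 19.4 CPM with empty vector (SD, n = 3), and no edgeR test of it passed (adjusted p = 0.947 for Smndc1 shRNA).

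Other low regions for Smndc1 shRNA were in the bodies of Trp53bp1 (-1.16 ± 0.70, edgeR adjusted p = 0.716), Blm, the helicase that dissolves joined molecules (-0.95 ± 0.71, adjusted p = 0.8), and Fancd2, the ubiquitinated core of the Fanconi response (-0.81 ± 0.49, adjusted p = 0.71). Other high ones were in Mre11a, the nuclease of the MRN complex (1.30 ± 0.61, edgeR adjusted p = 0.575), and at 2 places in Xrcc6 (0.81 ± 0.40 and 0.80 ± 0.39, adjusted p = 0.608 and 0.595). At the farther of these, 13882 bp from the Xrcc6 start, Smndc1 shRNA gave 5.00, 6.27 and 9.30 CPM and empty vector 3.11, 4.41 and 4.23, with no overlap. All of these regions averaged under 10 CPM, and their SEs ran from 0.39 to 0.71.

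Smndc1 shRNA was also compared directly with Atrx shRNA; the control libraries enter the scaling, filter and spread of this fit but not the difference. With TMM factors 0 of 107 member regions passed the edgeR test, where 0.0759% of all regions did, and with trended offsets 0 did, where 0.589% of all regions did. At an unadjusted p under 0.05 there were 5 of 107 (4.67%, against 5.4%) with TMM factors and 11 (10.3%, against 9.29%) with trended offsets, and DESeq2 and limma voom called 0. The groups did not overlap at 6 regions higher with Smndc1 shRNA (5.03% of all regions did so) and 6 lower (5.15%), and with trended offsets at 5 (7.07%) and 9 (6.94%). The median log2 difference was -0.04 over members and 0 over all regions, and with trended offsets 0.01 over both.

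The highest difference among regions with a mean log2 CPM of at least 1 was in Trp53bp1, at a region in the window of Map1a (chr2:121294175-121294675), 22768 bp upstream of the start used for its promoter window. Smndc1 shRNA gave 13.2, 15.1 and 13.0 CPM and Atrx shRNA 7.07, 12.4 and 4.22 CPM, with no overlap. The log2 difference was 0.82 ± 0.27 (edgeR adjusted p = 0.388) with TMM scaling and 0.83 ± 0.26 (adjusted p = 0.116) with trended offsets, and with those offsets it passed when Atrx shRNA replicate 2 was left out (1.28, adjusted p = 0.0344). A region of Rpa1, a subunit of the protein that coats single-stranded DNA, had 7.79, 9.999 and 10.7 CPM with Smndc1 shRNA and 4.17, 4.96 and 6.98 with Atrx shRNA (0.81 ± 0.32, edgeR adjusted p = 0.672). Regions in Blm (0.80 ± 0.66) and Mre11a (0.66 ± 0.56) were next. The lowest were those of Wrn (-1.17 ± 0.73), Pot1a (-1.14 ± 0.54), another of Trp53bp1 (-0.96 ± 0.71) and Palb2, the bridge between BRCA1 and BRCA2 (-0.95 ± 0.57), with edgeR adjusted p from 0.88 to 1.

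Counts were also summed over all regions of each gene. CPM in this paragraph are scaled to library totals of such sums over coding genes, with TMM factors of their own. They are not on the scale of the CPM of single regions. In the edgeR test of 16251 coding genes with TMM factors, 0 of the 35 passed for Smndc1 shRNA, for Atrx shRNA or between the shRNAs, where 0% of all genes did in each. With trended offsets 0 of 35 passed in each, where 0%, 0% and 0.0123% of all genes did. At an unadjusted p under 0.05 with TMM factors there were 0, 1 (Fignl1) and 1 (Mdc1) of 35, against 8.25%, 7.53% and 5.72% of all genes, and DESeq2 and limma voom called 0 of 35. The 95% interval lay wholly between -0.5 and 0.5 on the log2 scale for 28, 24 and 26 genes. Mdc1 summed over 5 regions was lower with Smndc1 shRNA (203.8 CPM on average) than with Atrx shRNA (246 CPM), at a log2 difference of -0.27 (unadjusted p = 0.0235, edgeR adjusted p = 0.853). The largest gene-level difference between the shRNAs was at Tert, 0.47, whose interval reached below 0.

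**Figure D5:**
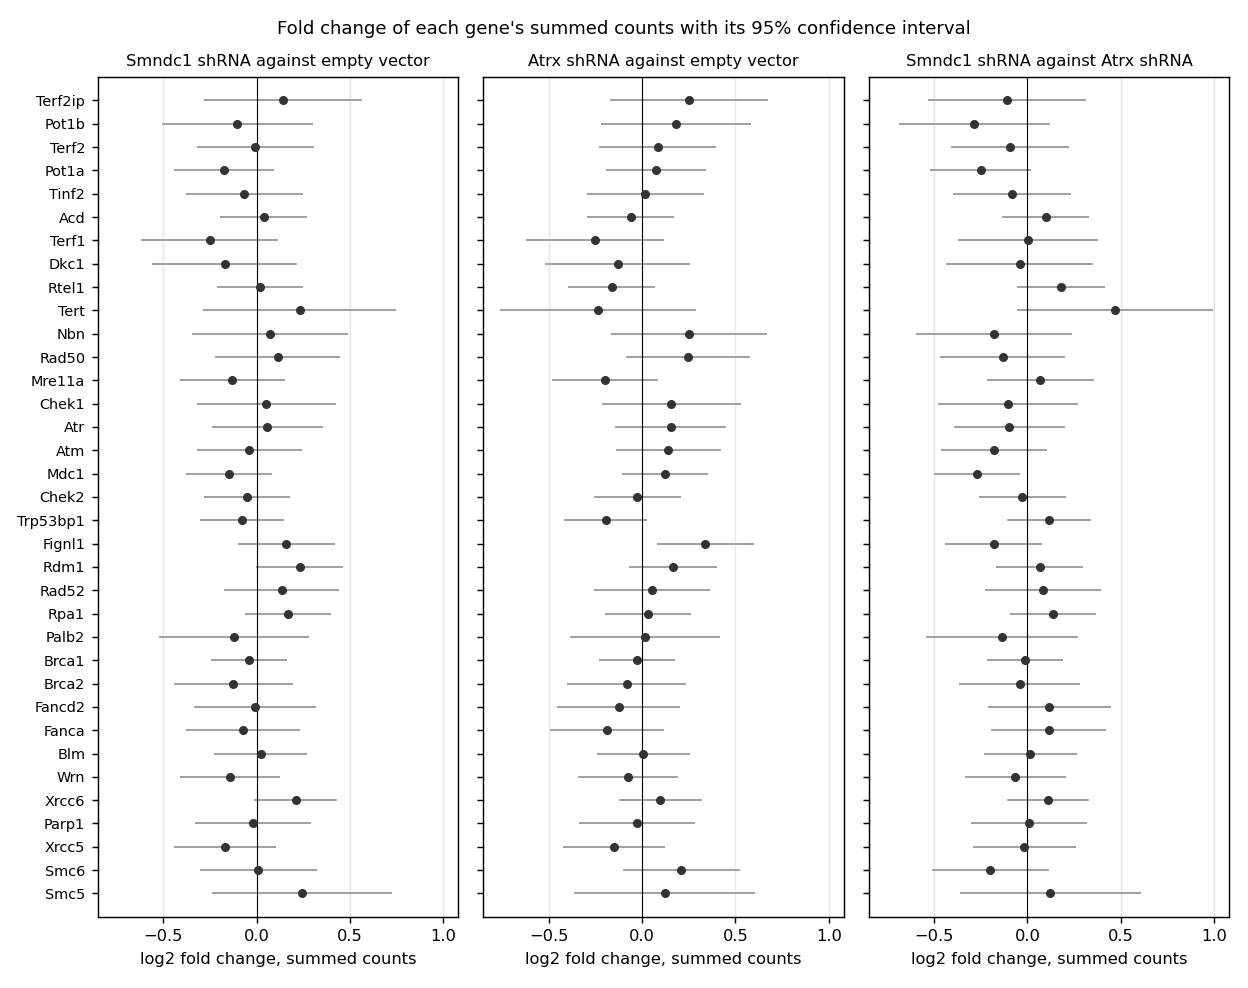
Log2 fold change of each gene's summed counts with its 95% confidence interval (horizontal axis, TMM factors) for the 35 genes, grouped by role, in the 3 comparisons. Intervals exclude 0 for Fignl1 with Atrx shRNA and for Mdc1 between the shRNAs, and no gene passed the adjusted threshold.

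By role, no group of members had a called region with TMM factors. For Atrx shRNA the median log2 fold change ran from -0.21 over the 7 regions of the telomerase and telomere helicase genes (Tert, Rtel1, Dkc1), of which 6 were negative, to 0.19 over the 6 regions of the MRN genes (Mre11a, Rad50, Nbn). For Smndc1 shRNA it ran from -0.13 over 9 tested regions of the RecQ helicases (Blm, Wrn) to 0.09 over the 14 regions of the end-joining genes and Parp1, with the 30 regions of the recombination and Fanconi genes near that. The median SE of a single region was 0.27. Member start regions alone had medians of -0.05 for Smndc1 shRNA and 0.01 for Atrx shRNA, against -0.03 in both comparisons over all start regions. With trended offsets the telomerase and MRN medians for Atrx shRNA were -0.19 and 0.14, and the RecQ and end-joining medians for Smndc1 shRNA were -0.09 and 0.15. Those of member start regions were both -0.02, against 0.02 for Smndc1 shRNA and -0.02 for Atrx shRNA over all start regions.

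A wider list of 153 other genes of the same pathways holds 449 regions outside the 108, of which 447 were tested. With TMM factors 1 was called (0.156% of all regions were for that comparison), lower with Smndc1 shRNA, in the body of Paxip1 (chr5:27743039-27743734), which encodes a BRCT protein of the damage response. It stood at 52.9, 45.0 and 42.6 CPM with empty vector, 15.4, 26.9 and 22.5 with Smndc1 shRNA and 49.0, 41.2 and 30.5 with Atrx shRNA, and the Smndc1 shRNA libraries lay below both other groups. The log2 fold change was -1.12 ± 0.25 (edgeR adjusted p = 0.0328) with TMM scaling and -1.07 ± 0.15 (adjusted p = 4.26e-08) with trended offsets, and the difference from Atrx shRNA was -0.90 ± 0.26 (adjusted p = 0.225) and -0.85 ± 0.15 (adjusted p = 9.16e-05).

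With trended offsets, 2 of the 447 rose and 4 fell with Smndc1 shRNA, near the shares of all regions called (0.414% higher and 0.736% lower). Those that rose were in the flanks of Babam1, a BRCA1-A complex subunit (0.80 ± 0.16, edgeR adjusted p = 0.00107), and Recql4 (1.03 ± 0.26, adjusted p = 0.0138). Besides Paxip1, those that fell were at the lower bound of Xpc, which recognises bulky lesions (-0.84 ± 0.19, edgeR adjusted p = 0.00534), in the body of Recql5 (-0.61 ± 0.14, adjusted p = 0.00549) and in the flank of Ten1, a telomere replication factor (-0.43 ± 0.11, adjusted p = 0.017). With Atrx shRNA 2 rose and 0 fell (0.194% and 0.0747% of all regions): a region 193 bp from the start of Rad23b (0.69 ± 0.17, edgeR adjusted p = 0.0329) and one upstream of Dna2, the resection nuclease (1.45 ± 0.37, adjusted p = 0.0419). The flank of Dna2 had 2.22, 3.24 and 3.6 CPM with empty vector and 7.71, 11.6 and 5.52 with Atrx shRNA, with no overlap.

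Between the shRNAs 3 of the 447 were higher and 2 lower with Smndc1 shRNA, where 0.203% and 0.386% of all regions were. The body region of Rad54b, a recombination motor protein, had 30.6, 28.6 and 28.6 CPM with Smndc1 shRNA, 18.1, 14.9 and 11.4 with Atrx shRNA and 25.6, 23.2 and 21.3 with empty vector. The groups did not overlap, with a log2 difference of 1.02 ± 0.18 (edgeR adjusted p = 0.000163) with trended offsets and 0.98 ± 0.23 (adjusted p = 0.0784) with TMM scaling. The others with trended offsets were Babam1 (0.67 ± 0.16) and the start of Fancf (0.60 ± 0.16), which were higher, and Paxip1 and the outer bound of Stn1 (-0.57 ± 0.16), which were lower. Of the 11 regions called in this wider list, those of Paxip1, Rad23b and Stn1 lay in no other coding gene's window, and the other 8 did.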

How the data were processed

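The authors deposited raw counts per consensus region for 9 libraries and a list of the region bounds on mm10; sequencing was paired-end with 75 bp reads, per the labels' protocols. Bowtie2 2.4.4, MACS2 2.2.7.1, deepTools 3.5.1 and bedtools 2.27.1 are named in the submitters' processing notes; how regions were merged and what was counted is not given in the sources used here. Regions were joined to RefSeq gene bounds, which give no exons. Counts were tested with edgeR 4.0.16 in R 4.3.3 (quasi-likelihood F test, TMM factors, filterByExpr with a minimum count of 10, all 9 libraries in 1 fit, two-sided, Benjamini-Hochberg adjustment over all 80345 regions or 16251 genes, threshold 0.05); the scripts were tested on simulated data. SE is the log2 fold change over the root of F. Trended offsets, DESeq2 1.42.0, limma 3.58.1 voom, other filters and library subsets were alternatives. All 35 genes are covered by their lead regions; further regions are those called and the 4 highest and 4 lowest fold changes of each comparison at a mean log2 CPM of at least 1. The members and lists were chosen with earlier results of these data known. Some marker genes are not reported here.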

Additional observations from a re-analysis of the deposited data

How the results depend on the processing

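The counts of member regions called moved from 0 with several alternatives to the TMM fit. With trended offsets they were 1, 1 and 0 for Smndc1 shRNA, Atrx shRNA and the shRNAs against each other, and 1, 1 and 0 with trended offsets against average log CPM, an alternative chosen after seeing the data. For Atrx shRNA a mean count of at least 50, the 6 libraries of the comparison alone, and leaving out replicate 3 of every group each gave 1, the Fignl1 body region; leaving out replicate 3 also gave 1 for Smndc1 shRNA, the other Fignl1 body region. Leaving out 1 library at a time gave 0 to 2 for Smndc1 shRNA, 0 to 1 for Atrx shRNA and 0 to 1 between the shRNAs over both scalings. For these subsets and filters and for the offsets against average log CPM, the share of all regions called is not given. Those counts are therefore not read as results about the members. RLE factors, library size alone, DESeq2, limma voom, no filter, windows of the gene body alone (89 regions tested) or with 10 kb (128 regions tested), and an adjusted p under 0.1 left all 3 counts at 0. The share of all regions called is likewise not given for the fits among these or for this threshold. These counts are not read as results about the members either. None of the 25 fold changes of named regions changed sign in any alternative, and 5 passed the threshold in some. Nearly all of the 25 were picked as extremes of the TMM fit, and the alternatives reuse the same counts. A kept sign was therefore likely in advance and is no independent support. The Fignl1 body region, at 1.06 ± 0.23 on the log2 scale, did not pass with TMM factors and passed with trended offsets. Whether a difference of that size was called thus varied with the fit, and a region that was not called may still differ. The cause of the changes was not tested.

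A replicate block with TMM factors called 0, 2 (Fignl1, Pot1a) and 2 (Fignl1, Trp53bp1) member regions for Smndc1 shRNA, Atrx shRNA and the shRNAs against each other, where it called 1.58%, 0.288% and 0.764% of all regions. With trended offsets the block called 2 (Fignl1, Rdm1), 3 (Fignl1, Pot1a, Rdm1) and 3 (Fignl1, Trp53bp1, Acd), where it called 2.64%, 0.988% and 1.42%. On summed counts the block called 1 of 35 genes for Atrx shRNA, Fignl1, with either scaling (2.17% and 2.54% of all genes). The numbers share no stated source. After removal of group means, same-numbered libraries correlated at 0.31 to 0.42 for replicate 3 and at -0.04 to 0.25 for replicates 1 and 2. Replicate 3 libraries correlated with other-numbered libraries of other groups at -0.375 to 0.04. Same-numbered libraries were not treated as pairs, so the shared contrast of replicate 3 stays in the spread of the main fit.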
